A study of Rattus norvegicus with 26 samples.

Results

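The vesicular glutamate transporters are 3 membrane proteins that fill synaptic vesicles with glutamate: VGLUT2, encoded by Slc17a6, VGLUT1, encoded by Slc17a7, and VGLUT3, encoded by Slc17a8. They were followed in hippocampal RNA of 26 male F344 rats (an inbred strain) aged 18 months, with 1 Affymetrix Rat Gene 1.0 ST array for each rat. The rats had eaten a purified diet for 5 to 6 months with vitamin D3 (cholecalciferol) at 100 IU per kg (low, 8 rats), 1000 IU per kg (control, 9 rats) or 10000 IU per kg (high, 9 rats). All 3 diets thus held some vitamin D3, and the rats lived in pairs, told apart by a mark on the tail of 1 of them. Which rats shared a cage was read from a code in the array descriptions and is not stated in words. Each of the 3 genes was read by 1 probe set carrying its symbol alone, out of 14506 genes on the array with such a probe set, so no other probe set could serve as a check. All values are log2 intensities as deposited, and a difference of 1 is a doubling. Slc17a6 (probe set 10707325, mean 7.38 over all rats) and Slc17a7 (10706734, mean 13.15) lay above the level of 6.94, the median of all probe sets, that set 8485 genes apart for testing. Slc17a8 (10901735) averaged 6.67, which is 0.28 below that level, and was tested in a fit of all 14506 genes. The family was chosen by the diet values of Slc17a6, which had the highest difference of the 8485 genes between the high and low diets, with an adjusted p of 0.286. Its diet values are therefore given as a description, while Slc17a7 and Slc17a8 came in by family.

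Glutamate is loaded into vesicles by these transporters at the cost of the proton gradient that the vesicular ATPase builds up, and a neuron that has one of them can release glutamate. VGLUT1 is the main form of the principal cells of hippocampus and cortex. VGLUT2 is the main form of thalamus, hypothalamus and brainstem, and in and around the hippocampus it is known from axons that reach the tissue, from neurons of the subicular region and deep cortex, and from Cajal-Retzius cells. VGLUT3 is found in some cholecystokinin interneurons and in serotonergic and cholinergic neurons. The RNA came from blocks of tissue, in which fewer cells of a type and less RNA per cell cannot be told apart, and RNA of axons whose cell bodies lie outside the block is mostly not in the sample. The correlation of an array with the others averaged 0.997 to 0.998, and no 2 arrays were identical. The number of rats limits the precision: the median SE of a difference between high and low was 0.036 over the tested genes.

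The group mean of Slc17a6 was lowest on the low diet, intermediate on control and highest on high, and the gene varied widely inside each diet. An intermediate control mean is likely in advance for a gene chosen by its difference between high and low. In the 8 rats of the low diet its lowest, median and highest values were 6.89, 7.19 and 7.44. In the 9 rats of the control diet they were 6.98, 7.29 and 7.73, and in the 9 rats of the high diet 7.00, 7.71 and 8.02. The mean was 7.15 ± 0.20 (SD, n = 8) on low, 7.32 ± 0.22 (n = 9) on control and 7.66 ± 0.30 (n = 9) on high. High and low overlapped through 1 high-diet rat, while high and control, and low and control, overlapped through most of their rats. Every value of the low diet was exceeded by 8 of the 9 rats on high, and every control value by 4 of the 9. Of the 8 rats on low, 2 lay below every control rat. Of the 8 highest values among the 26 rats, 7 came from the high diet, 1 (rat 17) from the control diet and 0 from the low diet.

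A single rat of the high diet, rat 25, stood apart from the others of its group. Its Slc17a6 value was 7.00, which put it 22nd of 26 rats, while the other 8 rats of that diet lay between 7.56 and 8.02. Its cage mate, rat 26, had the second-lowest value of the high diet (7.56).

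**Figure D1:**
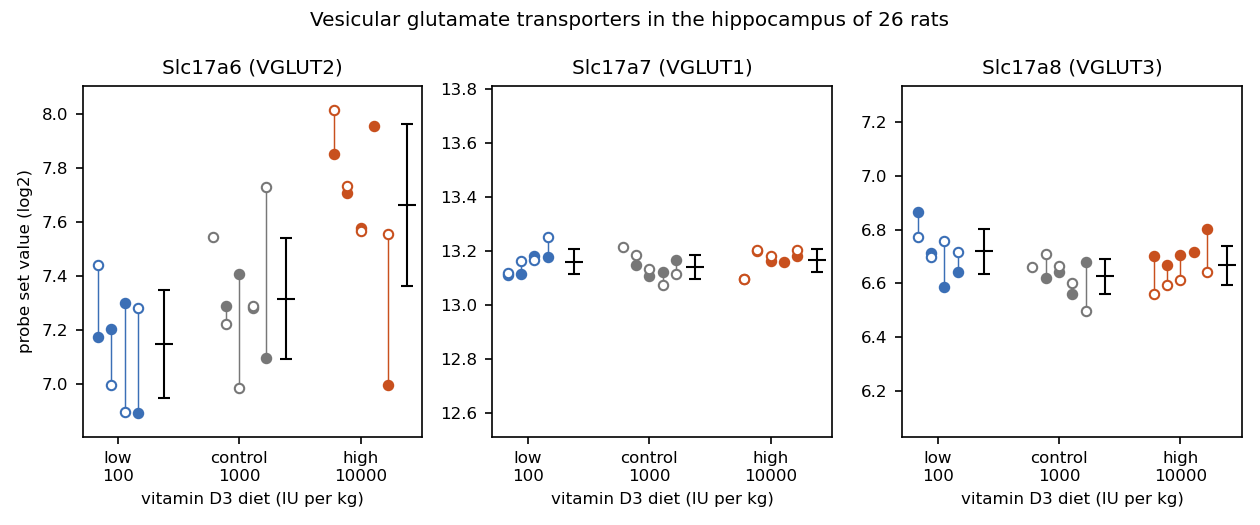
Log2 probe set values of the 3 transporter genes in each rat against vitamin D3 diet (IU per kg), with every panel spanning 1.3 log2 units. Filled points are marked and open points unmarked rats, a thin line joins cage mates, and the bar shows the mean ± SD. Slc17a6 reached 8.02 on the high diet and 7.44 on the low diet, while the diet means of Slc17a7 and Slc17a8 lay within 0.1 of each other.

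Set side by side, the diets differed for Slc17a6 by +0.52 between high and low (SE 0.11, a ratio of 1.43), by +0.35 between high and control (SE 0.11, a ratio of 1.27) and by -0.17 between low and control (SE 0.11, a ratio of 0.89). By size, the difference between high and control was the second highest of 8485 genes, and the difference between low and control stood 17th from the bottom. Ranks by size take no account of the spread within diets, which was larger than that of Slc17a6 in only 52 of the 8485 genes. By unadjusted p in limma, 22 genes had a smaller p between high and control. Between low and control 667 genes had a smaller p than Slc17a6 (limma unadjusted p = 0.138). These comparisons share arrays, so the ranks are not independent of each other. In limma's moderated test, with Benjamini-Hochberg adjustment over 8485 genes, 0 genes were called in any of the 3 contrasts at an adjusted p under 0.17, the stricter false discovery rate of the study, so 0 of the transporters were among called genes and percent called was 0 in each. Without adjustment, p was under 0.05 for 613 genes (7.22%) in the contrast of high with low, 393 (4.63%) in that of high with control and 193 (2.27%) in that of low with control, and the test without moderation also called 0. Across the 26 fits that left out 1 rat each, the difference of Slc17a6 between high and low ran between 0.47 (without high rat 19) and 0.60 (without high rat 25). Since this contrast chose the gene, no call is read from these fits.

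Cage mates were often unlike each other in Slc17a6. The gap between the mates of the 12 complete cages had a median of 0.24 and ran between 0.0070 and 0.63, the widest being that of control rats 16 and 17. Of the 5 cage means on the high diet, 4 lay above all 4 cage means of the low diet and above all 5 of the control diet. Cage means spanned 7.28 to 7.96 on high and 7.09 to 7.31 on low. On the control diet the cage means spanned 7.20 to 7.54. With cage as a random block the difference between high and low was +0.52 (SE 0.12).

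Slc17a7, the main vesicular transporter of the principal cells, had nearly equal means on the 3 diets. On the low diet its lowest, median and highest values were 13.11, 13.16 and 13.25. On the control diet they were 13.07, 13.13 and 13.22, and on the high diet 13.09, 13.18 and 13.20. The groups overlapped almost fully, and of the 9 rats on high 0 exceeded all rats of the low diet or all control rats. Its mean was 13.16 ± 0.047 (SD, n = 8) on low, 13.14 ± 0.043 (n = 9) on control and 13.16 ± 0.042 (n = 9) on high.

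High and low differed for Slc17a7 by +0.0046 (SE 0.024, limma adjusted p = 0.978), with a 95% interval of -0.045 to 0.054, so that a ratio outside 0.97 to 1.04 lay beyond the interval. High and control differed by +0.024 (SE 0.023, adjusted p = 1.00), and low and control by +0.020 (SE 0.024, adjusted p = 1.00). The sign of the difference between high and low turned without low rat 1, 2 or 3 or high rat 21 or 26, with values down to -0.0026.

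Slc17a8, the transporter of some cholecystokinin interneurons, had its highest mean on the low diet. On the low diet its lowest, median and highest values were 6.59, 6.71 and 6.87. On the control diet they were 6.50, 6.64 and 6.71, and on the high diet 6.56, 6.67 and 6.80. Of the 8 low-diet rats, 5 lay above every control rat, and the high-diet rats overlapped with both other groups. The mean was 6.72 ± 0.084 (SD, n = 8) on low, 6.63 ± 0.065 (n = 9) on control and 6.67 ± 0.073 (n = 9) on high.

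Low and control differed for Slc17a8 by +0.093 (SE 0.036, a ratio of 1.07), the largest of its 3 differences. In the limma fit of 14506 genes this had an unadjusted p of 0.0153 and an adjusted p of 1.00, beside 453 genes (3.12%) at an unadjusted p under 0.05 and 0 called (0%). High and low differed by -0.052 (SE 0.036, adjusted p = 0.909; 95% interval -0.13 to 0.021) and high and control by +0.041 (SE 0.035, adjusted p = 0.998; -0.031 to 0.11). In that fit 845 genes (5.83%) had an unadjusted p under 0.05 for high with low, and 649 (4.47%) for high with control, with 0 called in either. The order of the diets was thus low, high, control for Slc17a8 and high, control, low for Slc17a6. After adjustment over the 14506 genes, none of the 3 differences of Slc17a8 was called.

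**Figure D2:**
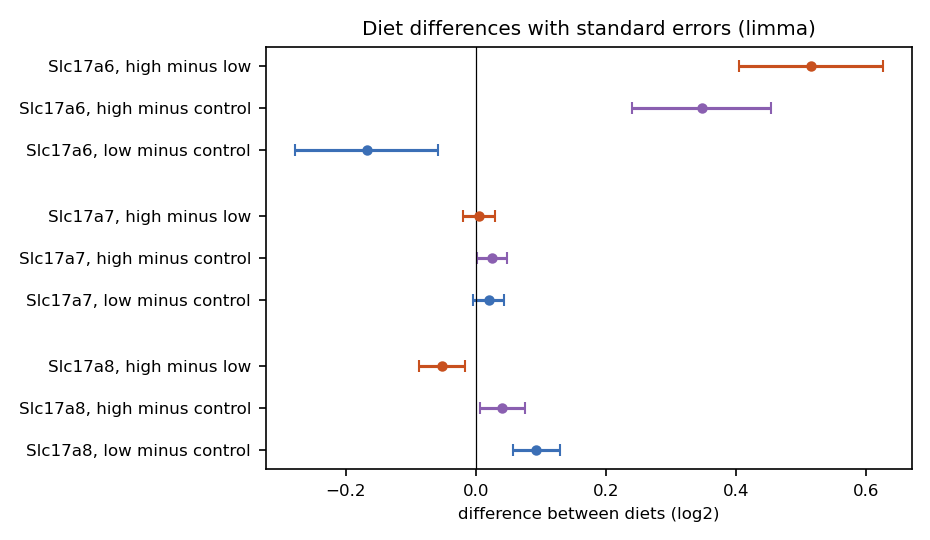
Differences between diets (log2) for each transporter gene, with bars of 1 SE from limma over 26 rats. The differences of Slc17a6 run between -0.17 and +0.52, those of Slc17a7 between 0.0046 and 0.024 and those of Slc17a8 between -0.052 and 0.093.

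The spread between rats of the same diet also set the genes apart. With the diet means removed, Slc17a6 had an SD of 0.25, and 52 of the 8485 tested genes had a larger one. Genes with means within 0.5 of that of Slc17a6 had a median SD of 0.098, and 98.3% of these 1393 genes varied less. Slc17a7 had an SD of 0.044, close to the median of 0.047 for the 151 genes within 0.5 of its mean. The SD of Slc17a8 was 0.074, and 13.9% of the 310 tested genes within 0.5 of its mean varied less. All of these genes lay above Slc17a8, which averaged 6.67, since genes were tested from 6.94 upward.

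No pair of the transporters passed a test of varying together over rats. After removal of the diet means, Slc17a6 and Slc17a7 had a Pearson r of -0.25 over 26 rats (permutation p = 0.224, adjusted over 3 pairs 0.335; Spearman rho = -0.29, p = 0.146, adjusted 0.361; r = -0.21 after leaving out the 2 rats with the most extreme Slc17a6). Slc17a7 and Slc17a8 had an r of 0.025 (permutation p = 0.906, adjusted 0.906; rho = 0.039, p = 0.852, adjusted 0.852; r = -0.085 without the 2 farthest rats). For Slc17a6 and Slc17a8 r was -0.40 (permutation p = 0.0439, adjusted 0.132; rho = -0.24, p = 0.241, adjusted 0.361). That relation was not stable: r was -0.091 after leaving out the 2 rats with the most extreme Slc17a6, and 0.023 over the means of 14 cages (permutation p = 0.936). Inside single diets r of Slc17a6 and Slc17a8 was 0.098 on low, -0.63 on control and -0.60 on high. Over cage means r with Slc17a7 was -0.23 for Slc17a6 (permutation p = 0.437) and 0.00046 for Slc17a8 (permutation p = 0.999).

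Among the 8484 other tested genes, those whose values over the rats were most like those of Slc17a6 were, in order, Ankrd34b, Chrna5, Nxph3, Etv1, Rdh16, Pbx3, Fezf2 and Ust. Likeness was the Pearson r over 26 rats after removal of the diet means, and these rats share a platform and, in pairs, cages. Ankrd34b, an ankyrin repeat protein, had an r of 0.91, with 0.92 over 14 cage means and 0.87 without high rat 25. Chrna5, a subunit of nicotinic acetylcholine receptors, had an r of 0.87, and Nxph3, a secreted ligand of alpha-neurexin, one of 0.86. Etv1 and Fezf2, transcription factors used as markers of deep cortical layers, had r of 0.84 and 0.81. Rdh16, a retinol dehydrogenase, and the homeodomain factor Pbx3 both had 0.82, and Ust, a sulfotransferase of chondroitin and dermatan sulfate, had 0.81. Inside single diets r of these 8 genes ran between 0.64 (Etv1 on control) and 0.97 (Ankrd34b on high). Over all other tested genes the median r with Slc17a6 was -0.080, and 26 genes reached 0.7.

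All 8 genes most like Slc17a6 had higher means on the high than on the low diet, and 0 of the 8 were called. Of the 8485 tested genes 0 were called as well, and 55.2% had a positive difference between these diets. The 8 were picked for varying with Slc17a6, itself chosen by its diet difference, so their shared direction is given as a description. Between high and low, Nxph3 differed by +0.35 (SE 0.19), Chrna5 by +0.27 (SE 0.13), Rdh16 by +0.21 (SE 0.095) and Ankrd34b by +0.20 (SE 0.095). Fezf2 differed by +0.18, Ust by +0.16, Pbx3 by +0.14 and Etv1 by +0.096. Their adjusted p values in limma lay between 0.674 and 0.704.

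**Figure D3:**
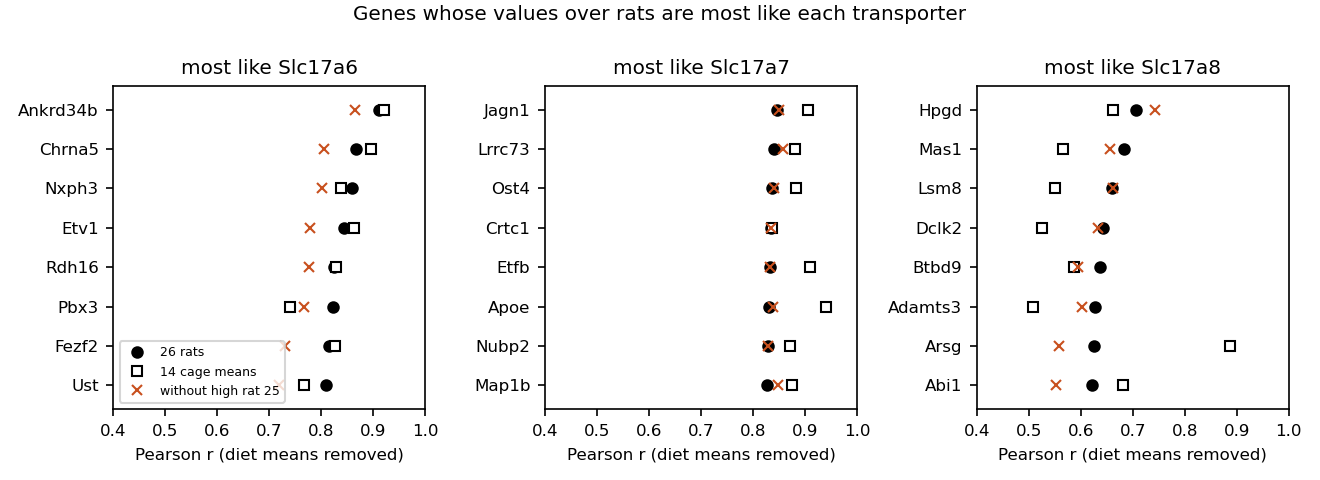
The 8 tested genes most like each transporter, with Pearson r after removal of diet means on the horizontal axis. Filled circles are 26 rats, open squares 14 cage means and crosses the rats without high rat 25. The genes beside Slc17a6 lie at 0.81 to 0.91 over rats, and those beside Slc17a8 at 0.62 to 0.71.

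Slc17a7 had other companions. The 8 genes most like it were Jagn1, Lrrc73, Ost4, Crtc1, Etfb, Apoe, Nubp2 and Map1b, with r between 0.83 and 0.85. Jagn1 and Ost4 are proteins of the secretory pathway in the endoplasmic reticulum, Crtc1 is a coactivator of CREB, Etfb a subunit of the electron transfer flavoprotein, Apoe a lipid carrier and Map1b a microtubule-associated protein. Many more genes were like Slc17a7 than like the others: 171 of 8484 reached an r of 0.7 and 1097 reached 0.5. Its values followed the first principal component of all tested genes, an axis that held 15.8% of their variance within diets (size of r 0.77), against 0.24 for Slc17a6 and 0.12 for Slc17a8. On the second component, which held 13.8% of the variance, the size of r was 0.55 for Slc17a6 and 0.56 for Slc17a8, against 0.058 for Slc17a7. The part of these axes in the likeness was not tested.

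For Slc17a8 the most similar genes were Hpgd, Mas1, Lsm8, Dclk2, Btbd9, Adamts3, Arsg and Abi1. Hpgd, which inactivates prostaglandins, had an r of 0.71 and was the 1 gene of 8485 to reach 0.7. Mas1, a G protein-coupled receptor for an angiotensin fragment, had 0.68, and the others lay between 0.62 and 0.66. Over cage means these r were between 0.51 (Adamts3) and 0.89 (Arsg).

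Markers of regions inside and next to the hippocampus were set against Slc17a6, since a tissue block can hold differing amounts of each. Markers of the labelled tissue lay on both sides of the level used for testing. Prox1 of dentate granule cells averaged 10.67, Wfs1 and Fibcd1 of CA1 averaged 12.04 and 10.08, and Grik4 and Bok of CA3 10.46 and 8.68. Other members of these lists lay below the level, Coch (5.74) and Iyd (5.69) for CA3 and Tdo2 (5.35) for dentate granule cells. Of 13 listed cortical symbols 6 had a probe set named for them alone and all 6 were tested. Their means were 12.00 for Nr4a2, 11.86 for Etv1, 9.41 for Fezf2, 9.10 for Trib2, 7.32 for Rspo1 and 7.29 for Ccn2. Nr4a2 and Etv1 were thus about as high as the CA1 marker Wfs1. How much of the cortical list came from cortex in the block and how much from hippocampal cells was not tested. Of 6 subicular genes 4 were tested (Fn1, Nts, Scn4b and Tpbg), with Gpr101 and Ly6g6e below the level.

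Over single rats, more Slc17a6 than in others of the diet went with higher levels of the cortical and subicular lists. It also went with lower levels of the lists of hippocampal fields, relations that did not pass over cage means. The arrays of lowest quality weight were those of control rat 17 (0.47), low rat 7 (0.47) and high rat 19 (0.54). Rats 17 and 19 had the highest Slc17a6 and the lowest mean of each hippocampal list in their diets. Low rat 7 had the lowest Slc17a6 and subicular mean of its diet and the highest dentate mean. The correlations were not tested without these arrays as a group. After removal of diet means, the mean of the cortical list had a Pearson r of 0.76 with Slc17a6 over 26 rats (permutation p = 1e-05, the lower limit of 100000 permutations, adjusted over 14 lists 0.00014; Spearman rho = 0.79, p = 1e-05, adjusted 0.00014; r = 0.69 without the 2 farthest rats). A correlation of this kind with cortical markers was known from these arrays when the list was chosen. Its members Etv1 and Fezf2 are also among the 8 genes most like Slc17a6. All marker lists were chosen with earlier results of these data known, so their p values are descriptive and no independent test. The subicular list had an r of 0.74 (permutation p = 2e-05, adjusted 0.00014; rho = 0.63, p = 0.00085, adjusted 0.00595; r = 0.60 without the 2 farthest). Its members were not alike in the diet comparison. Between high and low Tpbg differed by +0.24 (SE 0.13) and Nts, which encodes neurotensin, by +0.21 (SE 0.13). Fn1, fibronectin, which vessels express too, differed by -0.25 (SE 0.068). Nor were the members alike over rats, where r with Slc17a6 was 0.75 for Tpbg and -0.18 for Fn1. The mean of the subicular list thus did not stand for each member.

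The list of CA3 genes had an r of -0.61 with Slc17a6 (permutation p = 0.00176, adjusted 0.00654; rho = -0.56, p = 0.00329, adjusted 0.0115; r = -0.47 without the 2 farthest rats). That of dentate granule cells, with 2 tested genes, had an r of -0.59 (permutation p = 0.00187, adjusted 0.00654; rho = -0.58, p = 0.00207, adjusted 0.00966; r = -0.56 without the 2 farthest). That of CA1 had an r of -0.48 (permutation p = 0.0157, adjusted 0.0439; rho = -0.42, p = 0.033, adjusted 0.0923; r = -0.42 without the 2 farthest). These permutations took cage mates as independent. Over the means of 14 cages r was 0.85 for the cortical list (adjusted p = 0.00056 by permutation) and 0.71 for the subicular list (adjusted 0.029). The lists of CA3 (-0.59, adjusted 0.101), dentate (-0.35, adjusted 0.509) and CA1 (-0.17, adjusted 0.606) did not pass over cage means. The subicular r over cage means was 0.39 without the 2 farthest cages, and its rho of 0.62 had an adjusted p of 0.0928 by permutation.

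**Figure D4:**
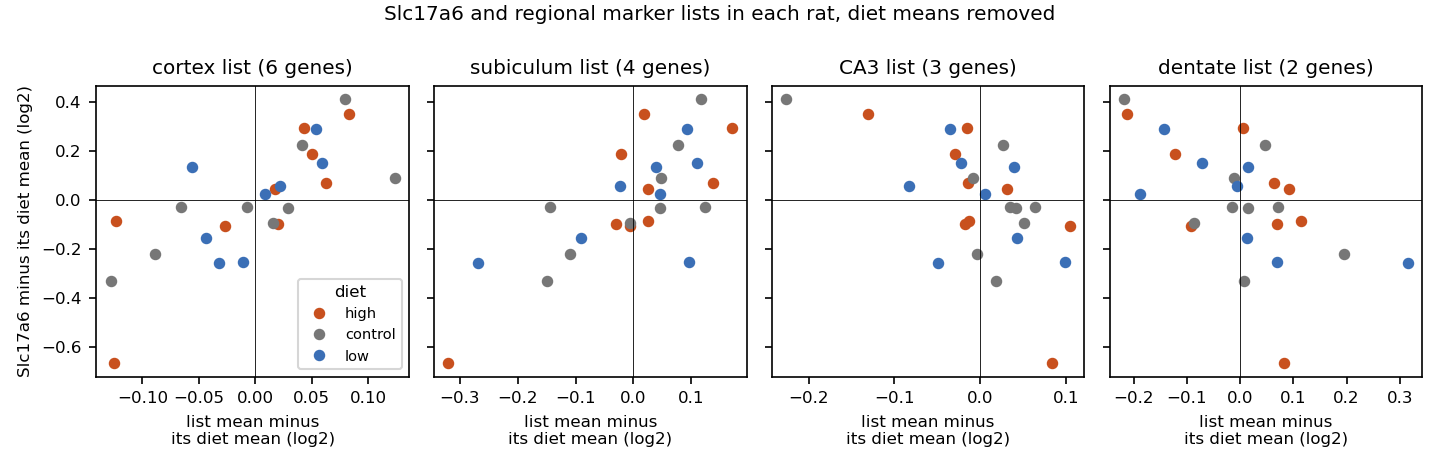
Slc17a6 in each of 26 rats against the mean of 4 regional marker lists, both as log2 values minus the mean of the rat's diet. Points rise to the right for the cortical (r = 0.76) and subicular lists (r = 0.74) and fall for the CA3 (r = -0.61) and dentate lists (r = -0.59), and the lowest point in each panel is high rat 25.

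Lists of other known sites of VGLUT2 or VGLUT3 did not pass in their correlation with Slc17a6, and no list was set against Slc17a8. The thalamic list had an r of 0.25 with Slc17a6 (permutation p = 0.215, adjusted 0.335), with Lef1 and Tnnt1 below the level. For Cajal-Retzius cells only Reln, which interneurons make as well, was above the level, while Tp73, Lhx1, Lhx5, Ebf3 and Calb2 were below it (r = 0.29, permutation p = 0.151, adjusted 0.274). For habenula and for the hypothalamic and mammillary region 1 gene each was above the level, with r of -0.11 and 0.11. Of the cholecystokinin interneuron genes Cck and Cnr1 were above it and Vip, Htr3a and Sncg below (r = 0.17, permutation p = 0.408, adjusted 0.571). The lists of astrocytes (r = 0.081), oligodendrocytes (r = -0.29), blood vessels (r = -0.30) and choroid plexus (r = 0.046) did not pass either, with adjusted p by permutation between 0.274 and 0.821. Over cage means r was -0.58 for oligodendrocytes (adjusted p = 0.101 by permutation) and -0.51 for habenula (adjusted 0.169), beside -0.59 for CA3. It was 0.18 for astrocytes, 0.025 for blood vessels and 0.30 for choroid plexus. A negative r over cage means was thus not particular to the hippocampal lists.

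Diet means of the marker lists differed too, and their part in the difference of Slc17a6 was not tested. The fits below with a list mean in the model give values only, since the cortical list was known to follow Slc17a6 in these arrays. Of the 6 cortical genes 5 had higher means on high than on low, their median difference being +0.096, beside 55.2% of all tested genes higher and a median of +0.0053. The sum of the 6 log2 values ran between 56.57 and 57.82 in high-diet rats and between 56.46 and 57.16 in low-diet rats, with 56.00 to 57.51 in control rats. Fezf2 differed by +0.18 between high and low (SE 0.062) and Etv1 by +0.096 (SE 0.039), and 0 of the list were called. All 6 genes of blood vessels had lower means on high than on low (median -0.094), the sum of their log2 values lying between 49.46 and 50.33 in high-diet rats and between 49.83 and 50.81 in low-diet rats. Of 5 CA1 genes 4 had lower means on high (median -0.081), with sums of 52.30 to 54.61 in high-diet rats and 53.85 to 54.86 in low-diet rats, and 0 of these lists were called. With the mean of the cortical list in the model, Slc17a6 differed by +0.28 between high and low (SE 0.084) and by +0.10 between high and control (SE 0.083), against +0.52 and +0.35 without it. With the subicular list in the model, an alternative added after seeing the data, the differences were +0.44 (SE 0.077) and +0.30 (SE 0.074), and with the thalamic list +0.49 (SE 0.11) and +0.33 (SE 0.11). Between low and control the difference of Slc17a6 was -0.18 (SE 0.074) with the cortical list in the model. Rat 25, low in Slc17a6, had the lowest mean of the high diet for the cortical list, only just below the next (9.428 beside 9.430), and for the subicular list (7.82, against 8.11 to 8.31).

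The genes around the transporters showed small differences. Of 37 tested genes in 4 lists of the loading pathway, 30 had higher means on high than on low (median difference +0.029), 29 on high than on control (median +0.026) and 16 on low than on control (median -0.0045), while 55.2%, 50.6% and 44.1% of all tested genes did, and 0 of the 37 were called in any contrast. All 37 differences between high and low lay between -0.040 and 0.14. The vesicular proton pump, which powers the transporters, had 15 of 17 genes with higher means on the high than on the low diet (median +0.029). Its subunit genes Atp6v1e1 and Atp6v1b2 differed by +0.058 (SE 0.025) and +0.045 (SE 0.022).

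Of the other vesicular transporters 5 of 6 were higher on high than on low. Sv2c and Sv2a, vesicle glycoproteins, differed by +0.14 (SE 0.056) and +0.057 (SE 0.027), and Slc32a1, which loads GABA, by +0.087 (SE 0.047). Slc30a3, the zinc transporter of glutamatergic vesicles, differed by -0.014 (SE 0.045). In glutamate synthesis and recycling 10 of 13 genes were higher. The mitochondrial glutamate carriers Slc25a18 and Slc25a22 differed by +0.077 (SE 0.036) and +0.059 (SE 0.027), while the astrocytic uptake transporters Slc1a2 and Slc1a3 differed by -0.012 and -0.011. Among the other members of the SLC17 family only Slc17a5, the sialic acid transporter sialin, was above the level, and it differed by -0.0025 (SE 0.039).

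Marked and unmarked rats of the same diets were compared as well, a contrast that the choice of the family did not use. Slc17a6 averaged 7.36 in marked and 7.40 in unmarked rats, and with diet in the model they differed by -0.067 (SE 0.090, limma adjusted p = 0.961; 95% interval -0.25 to 0.12). Slc17a7 differed by -0.015 (SE 0.020, adjusted p = 0.961) and Slc17a8 by +0.030 (SE 0.029, adjusted p = 0.982). In this contrast 0% of genes were called, and an unadjusted p under 0.05 was found for 5.32% of the 8485 genes and 4.69% of all 14506. Within the 12 complete cages the differences were -0.078 for Slc17a6, -0.0092 for Slc17a7 and +0.031 for Slc17a8, with 0% called and 5.88% of the 8485 genes (5% of all 14506) at an unadjusted p under 0.05. The difference between high and low did not pass a test of being unlike in marked and unmarked rats for Slc17a6 (interaction -0.089, SE 0.23, adjusted p = 0.985), Slc17a7 (+0.018, SE 0.050, adjusted p = 0.988) or Slc17a8 (+0.15, SE 0.068, unadjusted p = 0.0379, adjusted p = 0.930). For this interaction 0% of genes were called, and 4.9% of the 8485 genes and 5.01% of all 14506 had an unadjusted p under 0.05.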

How the data were processed

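The authors deposited log2 values for 29214 probe sets on 26 arrays. The submitters' processing notes name Partek 6.6 and GCRMA without saying which did what. Array medians lay between 6.92 and 6.96, so nothing further was normalized. The array annotation named 15310 probe sets with 1 gene symbol, 323 with several and 13581 with none; per gene the probe set of highest mean was kept. Diet was fitted as a factor over all arrays with limma 3.58.1 in R 4.3.3, tested 2-sided on genes at or above the median level, and adjusted by Benjamini-Hochberg over all of them; members below that level came from the fit without it. Rats were taken as independent replicates, although mates shared a cage (14 cages, inferred from a code in the array descriptions, consensus correlation of mates 0.136). The fit was tested on simulated data. The members, marker lists and pathway lists were chosen with earlier results of these data known. Genes were named by rule: the members, the 8 genes most like each, and of each list the 2 of smallest p between high and low; Slc32a1, Slc30a3, Slc1a2, Slc1a3, Nts and the markers given by level were named after their values were seen. Alternatives were no filter, a stricter filter, every probe set, quantile normalization, median centring, cage as a block, array weights, no moderation, removal of values over 2 SD from the diet mean, only 2 diets, tail mark or marker means as covariates, and each rat left out.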

Additional observations from a re-analysis of the deposited data

Results flagged for a closer look

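Slc17a6 in high rat 25 lay far below the other rats of its diet, at 7.00 log2 against 7.56 for the next lowest. The gap was 0.56, and divided by the range of the group it was 0.549, past the 95% limit of 0.493 for 9 rats. Of the 18 highest and lowest values examined (3 genes in 3 diets) this was the only one past its limit, and chance marks about 1 group in 20. The same rat had the highest Slc17a8 value of its diet (6.80) and a Slc17a7 value (13.18) inside the range of its group. On the high diet it had the lowest mean of the subicular list and, only just, of the cortical list (9.428 beside 9.430). Its array had a quality weight of 0.97, while the 3 lowest weights were those of control rat 17, low rat 7 and high rat 19. Without this rat Slc17a6 differed by +0.60 between high and low and by +0.43 between high and control, values given with no test since this gene was chosen by its diet difference.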

How the results depend on the processing

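The differences of Slc17a6 kept their sign in all 3 contrasts under every alternative run, and those of Slc17a7 and Slc17a8 did so except for Slc17a7 between high and low when single rats were left out. Dropping values more than 2 SD away from the mean of their diet left out only high rat 25 for Slc17a6. The differences of Slc17a6 were then +0.60 for high with low and +0.43 for high with control, and 30 and 15 genes were called, against 0 and 0. This removal was applied to every gene and narrows the spread within diets, which by itself tends to lower p. No call of Slc17a6 is read from this or any other alternative, since its diet difference chose it. With the subicular list as a covariate, added after seeing the data, Slc17a6 differed by +0.44 between high and low, and 1 gene in all was called. Between high and low 1 gene was also called with quantile normalization, with centring and with the tail mark as a covariate. Without the 3 arrays of lowest quality weight (control rat 17, low rat 7 and high rat 19), likewise added later, 5 genes were called for high with low and 1 for high with control, with Slc17a6 at +0.43 between high and low and at -0.080 between low and control, against -0.17. Leaving out each rat in turn gave 0 to 3 calls for high with low, 0 to 1 for high with control and 0 for low with control. Slc17a6 then differed by 0.47 to 0.60, by 0.30 to 0.43 and by -0.21 to -0.12, Slc17a7 by -0.0026 to 0.017, by 0.016 to 0.034 and by 0.0069 to 0.029, and Slc17a8 by -0.071 to -0.031, by 0.024 to 0.054 and by 0.072 to 0.11 in these contrasts. Over cage means the correlation of Slc17a6 turned to 0.023 with Slc17a8 and to 0.025 with the vessel list. The stricter filter left out Slc17a6 and Slc17a8, and the cause of these shifts was not tested. No paired analysis was possible because rat numbers are not shared between diets; cage mates were paired only for the tail mark.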
